A study of Mus musculus with 15 samples.

Results

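Selenop, Otub2, Serinc5, Scn11a, Myl4, Lgr5 and Ccdc190 are 7 of the 19938 genes measured in mouse germinal centre B cells, and all 7 had higher values in dark zone than in light zone cells. They were picked for that difference from the same 15 arrays, so their zone values are described here and carry no test, while their relation to affinity, which did not enter the choice, was tested. Each gene had exactly 1 probe set naming it alone. The cells were SwHEL B cells, which carry a knocked-in receptor for hen egg lysozyme and the congenic marker CD45.1. They had been transferred into C57BL/6J mice carrying CD45.2, which were immunized with sheep red blood cells coupled to the lysozyme mutant HEL3x, and were sorted from spleen on day 10 as IgG1+, CD38 low donor cells. The samples are labelled female, and neither the age of the mice nor whether animals were pooled is given in the sources used here. Dark zone cells were gated as CXCR4 high and CD86 low, and light zone cells as CD86 high and CXCR4 low. The groups were dark zone cells of high affinity (Dzhi, 4 arrays) and of low affinity (Dzlo, 4 arrays), and light zone cells of high affinity (Lzhi, 3 arrays) and of low affinity (Lzlo, 4 arrays). All groups share the receptor knock-in, the transfer and the immunization.

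In a germinal centre, B cells divide and mutate their antibody genes in the dark zone, then move to the light zone, where they test the mutated receptor on antigen and compete for help from follicular T cells. Cells that receive help return to the dark zone. The genes described here come from unrelated families. Selenop encodes selenoprotein P, a secreted carrier of selenium, and Otub2 a deubiquitinase of the OTU family. Serinc5 encodes a membrane protein of many passes, whose human counterpart lowers the infectivity of HIV. Scn11a encodes the pore-forming subunit of a voltage-gated sodium channel known from pain-sensing neurons. Myl4 encodes a myosin light chain of the atrium and of embryonic muscle. Lgr5 encodes a receptor for R-spondins, which strengthen Wnt signals, and marks stem cells of the intestine. Ccdc190 is named for a coiled coil.

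The promoters of the 3 genes with the largest zone differences are printed to show how unlike their sequences are upstream of the start. They are the 250 bases before a transcription start in the RefSeq promoter table (GRCm38.p6), 5′ to 3′ on the + strand, and where the table has several starts the last one listed was used. They lie at chr15:3270727-3270976 for Selenop, chr12:103388432-103388681 for Otub2 and chr13:92610888-92611137 for Serinc5. Capitals mark matches, on either strand, to 5 motifs. The E-box of the E2A factors was searched as CAGGTG and the site of the FOXO factors as TGTTTAC. The TATA box was searched with the letters TATAAA, and the GC box, a site of Sp factors, with the letters GGGCGG. The last motif was the box named for its own letters, CCAAT.
Selenop: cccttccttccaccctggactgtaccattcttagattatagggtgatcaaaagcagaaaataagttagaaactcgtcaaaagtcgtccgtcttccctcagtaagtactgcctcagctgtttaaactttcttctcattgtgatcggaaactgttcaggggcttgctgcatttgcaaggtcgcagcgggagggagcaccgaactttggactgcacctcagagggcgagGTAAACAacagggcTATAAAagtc
Otub2: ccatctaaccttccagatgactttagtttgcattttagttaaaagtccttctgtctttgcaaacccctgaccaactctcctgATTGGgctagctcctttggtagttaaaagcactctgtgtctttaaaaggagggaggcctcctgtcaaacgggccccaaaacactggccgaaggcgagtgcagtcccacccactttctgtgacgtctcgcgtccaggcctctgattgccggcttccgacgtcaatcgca
Serinc5: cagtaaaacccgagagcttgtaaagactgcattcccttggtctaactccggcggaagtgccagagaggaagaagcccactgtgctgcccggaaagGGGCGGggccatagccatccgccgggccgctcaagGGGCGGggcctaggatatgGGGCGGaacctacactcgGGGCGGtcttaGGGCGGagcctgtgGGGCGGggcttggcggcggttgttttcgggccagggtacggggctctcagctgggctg
The Selenop window held a FOXO match on the opposite strand at -24 to -18 and the TATA box letters at -10 to -5, counted from the start. Neither match was in the windows of its other listed starts. The FOXO letters were in 3.17% and the TATA box letters in 12.4% of the 32851 windows of this length in the table. The Otub2 window held 1 CCAAT box match on the opposite strand, found in 33.8% of all windows. The Serinc5 window held 6 GC box matches, a motif found in 32.7% of all windows, and 65.6% of its bases were G or C, against 47.6% for Selenop and 51.2% for Otub2. None of the matches in these 3 windows overlapped. Of the 7 genes, 6 had an entry, with 11 starts in all, and the FOXO letters were in 1 of those 11 windows. The E2A E-box letters, in 17.2% of all windows, were in windows of 2 genes, Selenop at another start and Ccdc190. Lgr5 had no entry, and no shared match joined all 6 genes.

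The 15 arrays had medians between 5.57 and 5.74 on the log2 scale. The sort markers followed the gates: Cxcr4 averaged 11.03 ± 0.33 in dark zone arrays and 10.35 ± 0.29 in light zone arrays, and Cd86 averaged 9.88 ± 0.42 in dark zone arrays and 10.93 ± 0.13 in light zone arrays (SD, n = 8 and 7). Lzlo replicate 3 stood apart. Its summed linear level of 12 neutrophil markers was 13600, of 12 T cell markers 2230 and of 16 macrophage markers 2630, each the highest of the 15 arrays. Dark zone arrays spanned 445 to 5950 for neutrophil, 492 to 828 for T cell and 554 to 1240 for macrophage markers. Naive B cell markers (6 of 8 measured) had summed levels of 1080 to 1940 in dark zone arrays and 2370 to 4030 in light zone arrays, without overlap. Plasma cell markers (10 of 10 measured) had 3940 to 6320 in dark zone arrays and 3030 to 4350 in light zone arrays. The naive B cell sum differed mainly through 2 genes, Fcer2a (dark minus light difference -1.69) and Cr2 (-0.89), while Ccr7 and Klf2 were at -0.03 and -0.19, S1pr1 and Cd55 at 0.18 and 0.17, and the median of the list was -0.11. Of the plasma cell markers 8 of 10 were above 0, with a median of 0.19, Jchain at 1.05 and Irf4 at -0.74. The part of such cells in the zone differences was not tested. B cell markers (7 of 8 measured) and germinal centre markers (6 of 8) overlapped between zones, with medians of -0.08 and -0.06 for the dark minus light difference. Stromal and follicular dendritic cell markers (10 of 10) spanned 467 to 589 in dark zone and 441 to 587 in light zone arrays, and erythroid markers (5 of 12) spanned 202 to 265 and, in light zone arrays, 172 to 301. Without detection calls in the table, no marker can be called absent.

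The first question was how strongly each gene separated the zones. All 8 dark zone arrays lay above all 7 light zone arrays for 7 of the 7 genes, a pattern that 0.0953% of all genes showed in that direction, and which the choice of the genes brings with it. Over both affinities the dark minus light difference was 1.57 for Selenop and 0.63 for Ccdc190, with the other genes between them, and its median over the 7 was 1.08, against 0.01 over all genes. In such sorted bulk samples, fewer cells expressing a gene and less RNA per cell cannot be told apart.

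**Figure D1:**
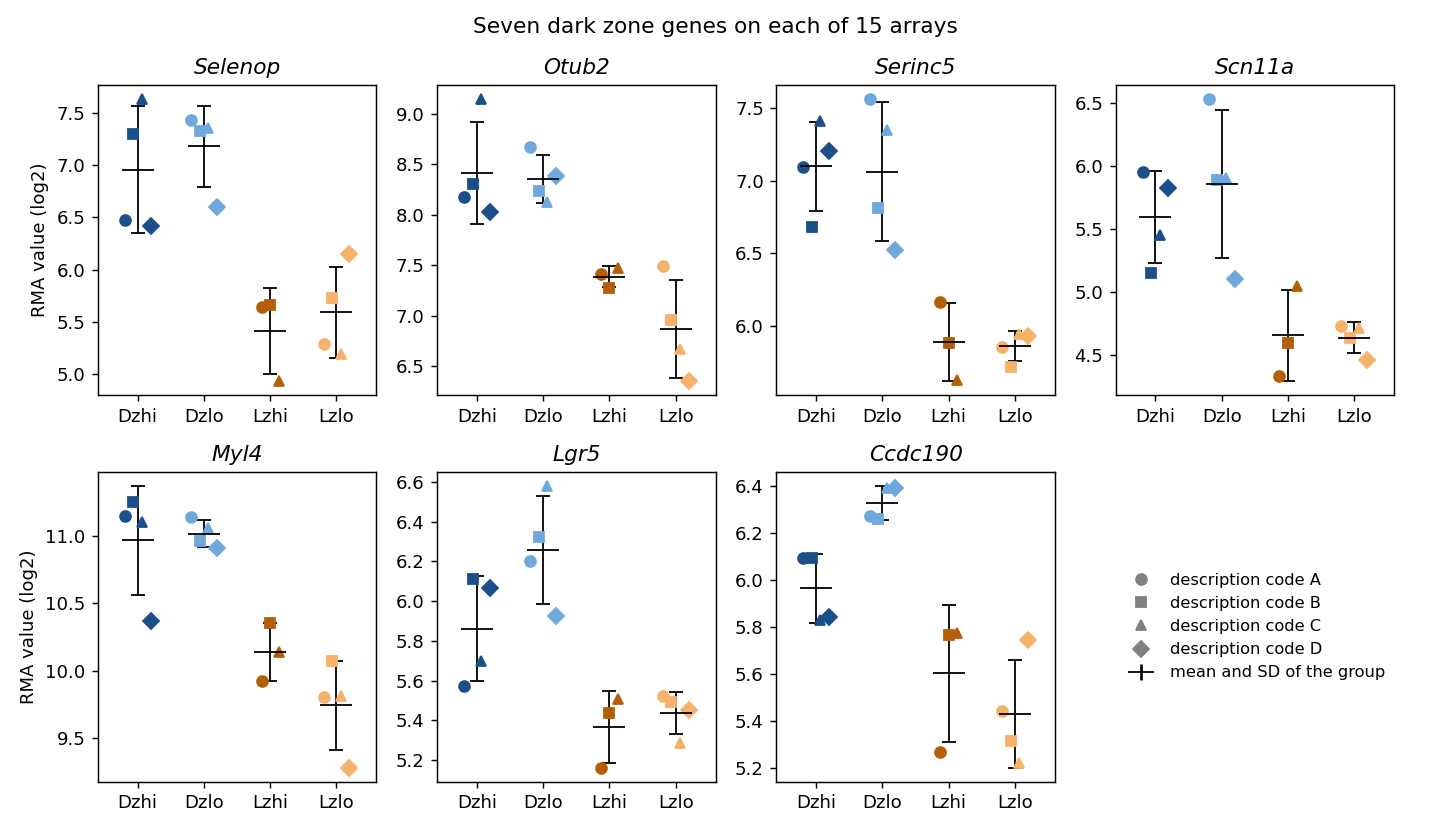
RMA values (log2) of the 7 genes on each array, by group, with the mean and SD of each group as black bars and the description code as the marker shape. In every panel the 8 dark zone arrays (blue) lie above the 7 light zone arrays (orange), by as little as 0.01 for Myl4 and as much as 0.53 for Otub2.

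Selenop, the selenium carrier, read 6.48, 7.30, 7.63 and 6.42 in Dzhi replicates 1 to 4 and 7.43, 7.32, 6.60 and 7.35 in Dzlo replicates 1 to 4. In light zone cells it read 5.64, 5.66 and 4.94 in Lzhi replicates 1, 2 and 4 and 5.29, 5.72, 6.15 and 5.20 in Lzlo replicates 1 to 4. Dzhi replicates 1 and 4 and Dzlo replicate 3 were the lowest of its dark zone arrays, and its highest light zone array was Lzlo replicate 3, which also had the highest macrophage marker level. The dark minus light difference was 1.57 ± 0.23 (SE), a 2.96-fold difference, the largest on the dark zone side of all 19938 genes. It was 1.66 ± 0.22 without Lzlo replicate 3. As deviations from group means over the 15 arrays, Selenop and the macrophage markers had r = 0.0032. That r was 0.49 for Ccdc190, and for the others it ran from -0.57 for Otub2 to -0.13 for Lgr5. Whether RNA of other cells adds to the Selenop value was not tested.

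Otub2, the deubiquitinase, read 8.18, 8.31, 9.14 and 8.02 in Dzhi and 8.67, 8.23, 8.39 and 8.13 in Dzlo. It read 7.41, 7.27 and 7.48 in Lzhi and 7.49, 6.96, 6.36 and 6.67 in Lzlo. The Dzhi array of 9.14 stood above the other dark zone arrays, the Lzhi arrays lay within a narrow range, and the zones were separated by 0.53, the widest gap of the 7 genes. The dark minus light difference was 1.25 ± 0.19 (SE), 2.39-fold. Serinc5, the membrane protein, read 7.09, 6.68, 7.41 and 7.21 in Dzhi and 7.56, 6.81, 6.52 and 7.35 in Dzlo, against 6.16, 5.88 and 5.63 in Lzhi and 5.86, 5.72, 5.93 and 5.95 in Lzlo. Its dark zone arrays were spread more widely than its light zone arrays (SD 0.37 and 0.17). The difference was 1.20 ± 0.16 (SE), 2.30-fold, and it was nearly the same among high-affinity cells (1.21 ± 0.23) and low-affinity cells (1.20 ± 0.22).

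Scn11a, the sodium channel gene, read 5.95, 5.15, 5.45 and 5.82 in Dzhi and 6.53, 5.89, 5.10 and 5.91 in Dzlo. It read 4.33, 4.59 and 5.05 in Lzhi and 4.73, 4.64, 4.46 and 4.72 in Lzlo. The lowest dark zone array, Dzlo replicate 3, lay only 0.05 above the highest light zone array, Lzhi replicate 4. The difference was 1.08 ± 0.19 (SE), 2.11-fold. Its mean over all arrays was below that of the median gene, as was that of Lgr5, and RMA compresses differences of dim probe sets. Myl4, the myosin light chain, read 11.15, 11.25, 11.11 and 10.37 in Dzhi and 11.14, 10.96, 10.91 and 11.06 in Dzlo, against 9.92, 10.35 and 10.14 in Lzhi and 9.81, 10.07, 9.28 and 9.81 in Lzlo. Of the dark zone arrays 7 lay close together, and the other, Dzhi replicate 4, was 0.01 above the highest light zone array. The difference was 1.06 ± 0.15 (SE), 2.08-fold.

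Lgr5, the R-spondin receptor, read 5.57, 6.11, 5.70 and 6.06 in Dzhi and 6.20, 6.32, 5.93 and 6.58 in Dzlo, against 5.16, 5.44 and 5.51 in Lzhi and 5.52, 5.49, 5.45 and 5.29 in Lzlo. The light zone arrays were close together, and the dark zone arrays reached higher in Dzlo than in Dzhi. The difference was 0.66 ± 0.11 (SE), 1.58-fold. Ccdc190 read 6.09, 6.09, 5.83 and 5.84 in Dzhi and 6.27, 6.26, 6.39 and 6.39 in Dzlo, against 5.27, 5.77 and 5.78 in Lzhi and 5.44, 5.31, 5.75 and 5.22 in Lzlo. All 4 Dzlo arrays lay above all 4 Dzhi arrays. The difference was 0.63 ± 0.10 (SE), 1.55-fold, with a gap of 0.06 between the zones.

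The choice of the 7 genes left some similar genes outside. In limma 14 genes were higher in the dark zone at an adjusted p under 0.05 (0.0702% of all genes). Of these, 10 had zones that did not overlap, and the 7 genes are among the 10. That is no test of the 7, which were chosen on this contrast. The other 3 of the 10 were Nt5e at 0.92, Smarca4 at 0.87 and Hmces at 0.82. Tent5c at 1.05, Eif2ak3 at 0.85, Ada at 0.78 and Acss1 at 0.60 passed but had overlapping zones, and Ptgr1 at 1.51 and Adhfe1 at 1.37 had larger differences than 6 of the 7 genes and did not pass. These calls depend on the fit: with the code in the samples' descriptions as a block (described next; forms of code B merged) 40 genes passed on the dark zone side, the 14 and both Ptgr1 and Adhfe1 among them, while with codes as written 13 passed, of which 4 were among the 14. Leaving out 1 array gave 5 without Lzhi replicate 2, 6 without Dzlo replicate 4, 7 without Dzlo replicate 1 or Lzlo replicate 1 or 2, and 8 without Dzhi replicate 2. It gave 9 without Dzhi replicate 3, Lzhi replicate 1 or Lzlo replicate 4, and 10 to 14 without any 1 of the others. Ptgr1 and Adhfe1 also passed with quantile normalization, array weights, an intensity trend in limma or only genes above the median level. Both passed without Dzlo replicate 3 and Lzlo replicate 3 together. Neither passed with codes as written, with arrays centred on their medians or with the mean of a gene's probe sets. With 1 array left out, Ptgr1 passed only without Dzhi replicate 4 or Dzlo replicate 3. Adhfe1 then passed only without Dzlo replicate 3 or Lzhi replicate 1. The 7 genes themselves did not all keep passing. All 7 passed with the merged code block, 2 with codes as written and 5 with arrays centred on their medians. With 1 array left out, from 3 (without Lzhi replicate 2) to 6 (without Dzlo replicate 3) of the 7 passed. By size of the difference, Lgr5 and Ccdc190 were ranked 106 and 121 on the dark zone side, where Scn11a was 17 and Myl4 19. The spread of Lgr5 and Ccdc190 within groups was small: pooled SDs were 0.22 and 0.19, against 0.24 for the median gene, while those of Selenop and Scn11a were 0.47 and 0.40.

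The descriptions of the samples carry a code after the group name, with 5 forms, merged here into 4 (A to D) by joining the forms of code B that differ between dark zone and light zone arrays. Arrays of the same code and affinity formed 7 dark and light pairs. Every gene was higher in the dark zone array in 7 of 7 pairs, which also follows from the zones not overlapping, and the size varied between pairs. For Selenop it ran from 0.45 in the low-affinity pair of code D to 2.69 in the high-affinity pair of code C. For Myl4 it ran only from 0.90 to 1.63. For Otub2 it ran from 0.76 to 2.03, and the largest was the low-affinity pair of code D, the pair in which Selenop and Serinc5 had their smallest. For Serinc5 the range was 0.60 to 1.78 and for Scn11a 0.40 to 1.80. The smallest differences of Lgr5 (0.19, up to 1.30) and Ccdc190 (0.06, up to 1.17) were both in the high-affinity pair of code C.

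**Figure D2:**
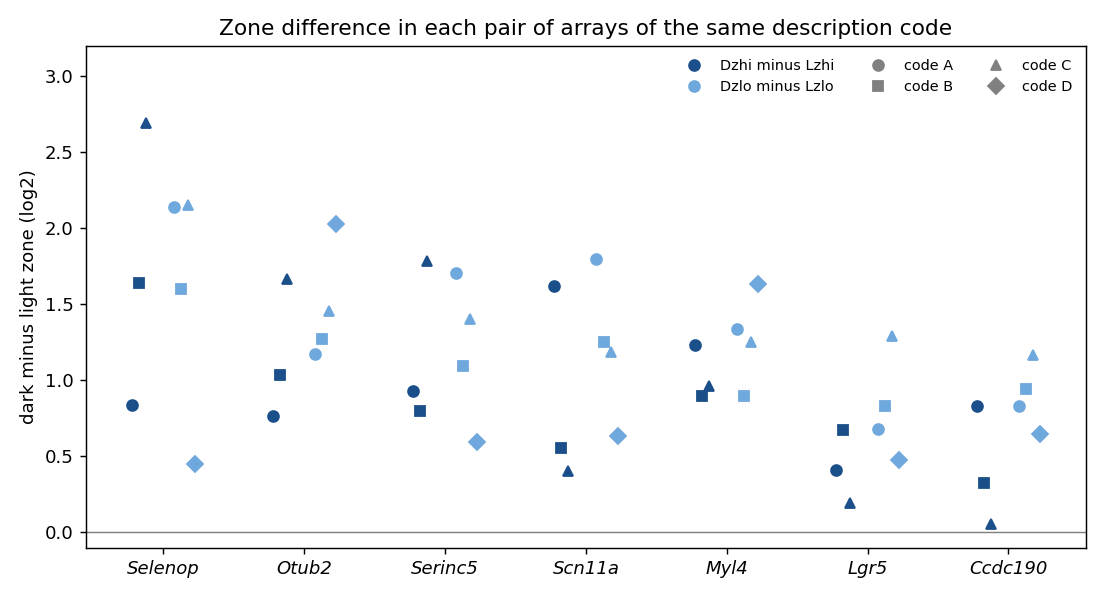
Dark minus light zone difference (log2) in each of the 7 pairs of arrays that share a code and an affinity, for each gene, with high-affinity pairs in dark blue and low-affinity pairs in light blue. Every point lies above 0. Selenop has the widest range, 0.45 to 2.69, and Myl4 the narrowest of the 5 genes with larger differences, 0.90 to 1.63.

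The next question was whether affinity changed these genes within a zone. In the dark zone, 0 of the 7 passed in limma at an adjusted p under 0.05, as did 0% of all genes, and 2 had an unadjusted p under 0.05, against 1.6% of all genes. These were the genes with the smallest zone differences. Ccdc190 averaged 5.97 ± 0.15 in Dzhi and 6.33 ± 0.07 in Dzlo (SD, n = 4 each), a high minus low difference of -0.36 ± 0.14 (SE), lower in Dzhi in 4 of 4 pairs of the same code (limma, unadjusted p = 0.0221, adjusted p = 1). Its groups did not overlap, as for 1.11% of all genes. Lgr5 averaged 5.86 ± 0.27 in Dzhi and 6.26 ± 0.27 in Dzlo, a difference of -0.40 ± 0.16 (SE), lower in Dzhi in 3 of 4 pairs (limma, unadjusted p = 0.0241, adjusted p = 1). Neither result survives adjustment over all genes.

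The other genes had dark zone affinity differences near 0 relative to their error. They were -0.22 ± 0.31 for Selenop and -0.26 ± 0.26 for Scn11a. Those of Otub2, Serinc5 and Myl4 were 0.06 ± 0.25, 0.03 ± 0.22 and -0.05 ± 0.20 (SE). The Scn11a difference depended on the arrays. It was -0.52 ± 0.22 without Dzlo replicate 3, -0.47 ± 0.23 with array weights and -0.04 ± 0.24 without Dzlo replicate 1. It passed in none of these runs. The 95% confidence interval of Myl4 ran from -0.48 to 0.38 and that of Serinc5 from -0.43 to 0.50, so a change of 1 on the log2 scale lies outside both. Selenop's ran from -0.88 to 0.44. Of the 7 differences 2 were above 0, with a median of -0.22, against 0.00147 over all genes.

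In the light zone, 0 of 7 genes passed in limma, as did 0% of all genes, and 0 had an unadjusted p under 0.05, against 4% of all genes. Otub2 averaged 7.39 ± 0.11 in Lzhi and 6.87 ± 0.48 in Lzlo (SD, n = 3 and 4), a difference of 0.52 ± 0.27 (SE; limma, unadjusted p = 0.0806, adjusted p = 1), higher in Lzhi in 2 of 3 pairs. Without Lzlo replicate 3 it was 0.35 ± 0.27. Myl4 averaged 10.14 ± 0.22 in Lzhi and 9.74 ± 0.33 in Lzlo, a difference of 0.40 ± 0.21 (SE; limma, unadjusted p = 0.086, adjusted p = 1), higher in Lzhi in 3 of 3 pairs, and 0.24 ± 0.20 without Lzlo replicate 3. In that array, with its high levels of neutrophil, T cell and macrophage markers, both genes had their lowest values of all 15 arrays, and the part of those cells' RNA was not tested. Ccdc190 differed by 0.17 ± 0.15 and Lgr5 by -0.07 ± 0.17. Serinc5, Scn11a and Selenop differed by 0.03 ± 0.23, 0.02 ± 0.28 and -0.18 ± 0.33 (SE). Without Lzlo replicate 3 the Selenop difference was 0.0068 ± 0.33. The Lzhi and Lzlo arrays overlapped for all 7 genes, while they did not overlap for 4.55% of all genes.

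**Figure D3:**
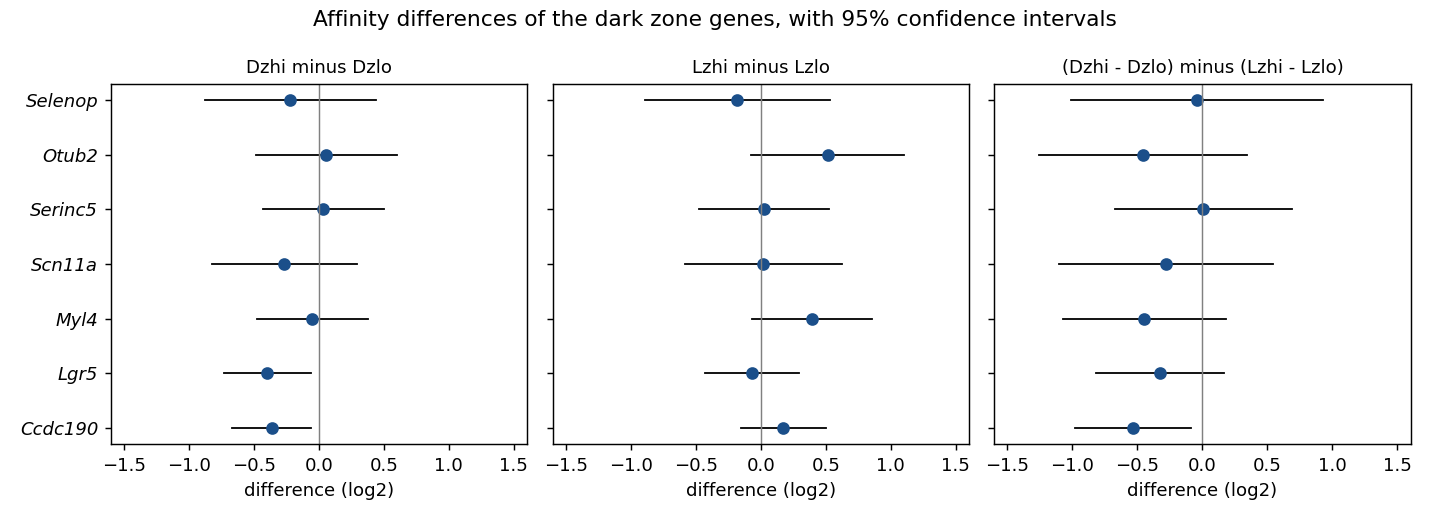
High minus low affinity difference (log2) of each gene in the dark zone (left) and in the light zone (middle), and the first minus the second (right), as limma estimates (points) with 95% confidence intervals (lines). The intervals of Lgr5 and Ccdc190 in the dark zone, and of Ccdc190 on the right, lie below 0, and the other 18 cross 0.

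Whether the zone difference depended on affinity was asked by the interaction, the affinity difference in the dark zone minus that in the light zone. In limma 0 of 7 genes passed, as did 0% of all genes, and 1 had an unadjusted p under 0.05, against 1.33% of all genes. That gene was Ccdc190. Its dark minus light difference was 0.36 ± 0.15 in high-affinity and 0.90 ± 0.14 in low-affinity cells, and the interaction was -0.54 ± 0.21 (SE; limma, unadjusted p = 0.0219, adjusted p = 1). For Myl4 it was 0.83 ± 0.21 in high-affinity and 1.28 ± 0.20 in low-affinity cells, with an interaction of -0.45 ± 0.29. For Otub2 it was 1.03 ± 0.27 in high-affinity and 1.48 ± 0.25 in low-affinity cells, with an interaction of -0.46 ± 0.37. Lgr5 had 0.49 ± 0.17 in high-affinity and 0.82 ± 0.16 in low-affinity cells, with an interaction of -0.33 ± 0.23. In 6 of the 7 genes the zone difference was larger among low-affinity cells, the exception being Serinc5, but none of these contrasts passed. For Selenop the zone differences were nearly equal, 1.54 in high-affinity and 1.59 in low-affinity cells. The interaction was thus above 0 for 1 of the 7, against 50.3% of all genes. The 7 were measured on the same arrays, so they are not independent counts. Without Lzlo replicate 3 the interaction was -0.29 ± 0.36 for Otub2 and -0.29 ± 0.27 for Myl4. It was -0.64 ± 0.19 for Ccdc190 and -0.23 ± 0.44 for Selenop without that array. The sign of the interaction changed in 11 alternative runs for Selenop and in 10 for Serinc5. Scn11a and Selenop had interactions of -0.28 ± 0.38 and -0.04 ± 0.45, with 95% intervals from -1.11 to 0.54 and from -1.01 to 0.93.

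Over the 15 arrays the 7 genes followed one another closely in level, since they share the zone difference that chose them. Pearson's r was above 0 in 21 of 21 pairs of genes, from 0.63 for Otub2 and Lgr5 to 0.90 for Otub2 and Myl4. Once each array's deviation from its group mean was used instead, 13 of 21 correlations were above 0 and the median was 0.06, against 0.78 for levels. The highest were 0.51 for Serinc5 and Scn11a, 0.44 for Otub2 and Myl4 and 0.38 for Selenop and Serinc5. The lowest was -0.37 for Serinc5 and Ccdc190. These are descriptions of 15 arrays that share codes, and arrays of 1 code may not be independent.

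**Figure D4:**
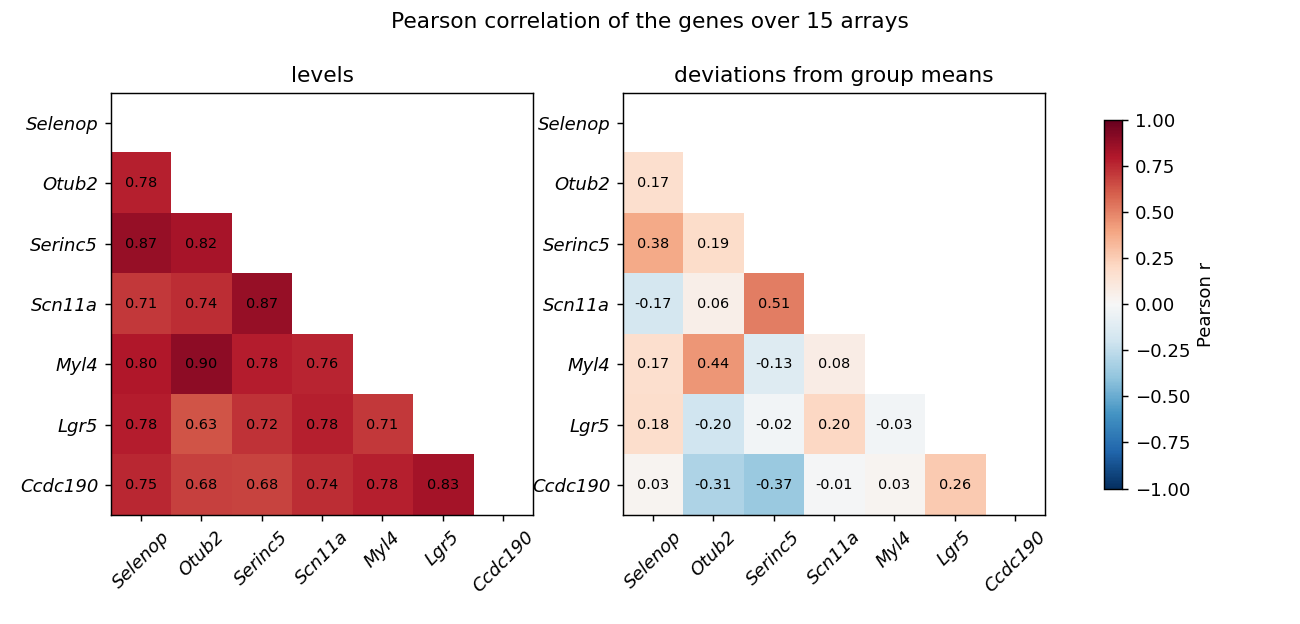
Pearson correlation between each pair of the 7 genes over 15 arrays, for levels (left) and for deviations from the 4 group means (right), on a colour scale from -1 (blue) to 1 (red). All 21 values on the left are above 0, between 0.63 and 0.90, and those on the right run from -0.37 to 0.51.

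For each of the 7, the 2 genes outside the set most like it in level over the 15 arrays were found, leaving out predicted genes, Rik clones, olfactory receptors, small RNAs and antigen receptor segments. Within the set, Otub2 had r = 0.90 with Myl4 and Scn11a had 0.87 with Serinc5, both above the values these 2 genes had with any gene searched. Myl4 was most like Cdc20 (r = 0.92) and Cdkn3 (r = 0.90). Cdc20 activates the anaphase-promoting complex and Cdkn3 encodes a phosphatase of cyclin-dependent kinases. With deviations from group means, Myl4 still had r = 0.85 with Cdc20 and 0.72 with Cdkn3. Otub2 was most like Slc43a3 (r = 0.87), a transporter gene, and Cenpa (r = 0.87), which encodes the centromere histone. Serinc5 was most like Hmces (r = 0.89), whose protein binds abasic sites in DNA, and Txndc11 (r = 0.89), of which deviations gave r = 0.26 and 0.75. Selenop was most like Nt5e (r = 0.87), encoding CD73, and Acss1 (r = 0.86), an acetyl-CoA synthetase gene, and had 0.87 with Serinc5. Lgr5 was most like Foxp1 (r = 0.87), a transcription factor gene, and Nt5e (r = 0.82), the second below its 0.83 with Ccdc190. Scn11a was most like Krt222 (r = 0.84) and Myom1 (r = 0.78), and Ccdc190 most like Eif4a3l1 (r = 0.84) and Scrn1 (r = 0.83). Each was among the 2 highest of the genes searched, so its size is partly set by that search.

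Relatives of the 7 genes were compared between zones next. Of 118 measured genes in 6 lists drawn up by family, 0 passed in limma at an adjusted p under 0.05, against 0.155% of all genes in both directions. At an unadjusted p under 0.05, 3 were higher and 2 lower in the dark zone, 4.24% of them against 4.38% of all genes. The 32 selenoproteins and genes of selenocysteine synthesis and uptake had a median of 0.002, from -0.24 for Sephs2 to 0.38 for Selenoh. The 14 OTU deubiquitinases had a median of 0.01. In that family Tnfaip3, which encodes the NF-kappaB inhibitor A20, was at -0.47 ± 0.18 (limma, adjusted p = 0.892), opposite in sign to Otub2, and Zranb1 at 0.46 ± 0.56. The 13 genes of the Serinc family and of serine-based lipid synthesis had a median of 0.01, with Sptlc1 at -0.54 ± 0.24 and Sptlc2 at -0.20 ± 0.12, both subunits of serine palmitoyltransferase.

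Among 10 sodium channel genes measured of 13 listed the median was 0.03. Scn8a, another pore-forming subunit, was at 0.25 ± 0.09 (limma, adjusted p = 0.777), and Scn4b, an auxiliary subunit, at 0.08 ± 0.09. The 18 myosin light chain and related genes had a median of -0.02, with Mylpf, the light chain of fast muscle, at 0.34 ± 0.14 (limma, adjusted p = 0.943) and Myl12b, a light chain of non-muscle myosin, at -0.32 ± 0.16. Of 32 R-spondin and Wnt pathway genes listed, 31 were measured, with a median of 0.02. Apc was at 0.39 ± 0.29 and Rnf43, whose product removes Wnt receptors and is inhibited through Lgr5, at -0.22 ± 0.14. Among all 118 relatives the largest difference in either direction was smaller in size than that of any of the 7 genes. The 7 were chosen for this difference and the relatives were not, so that contrast in size follows from the choice.

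**Figure D5:**
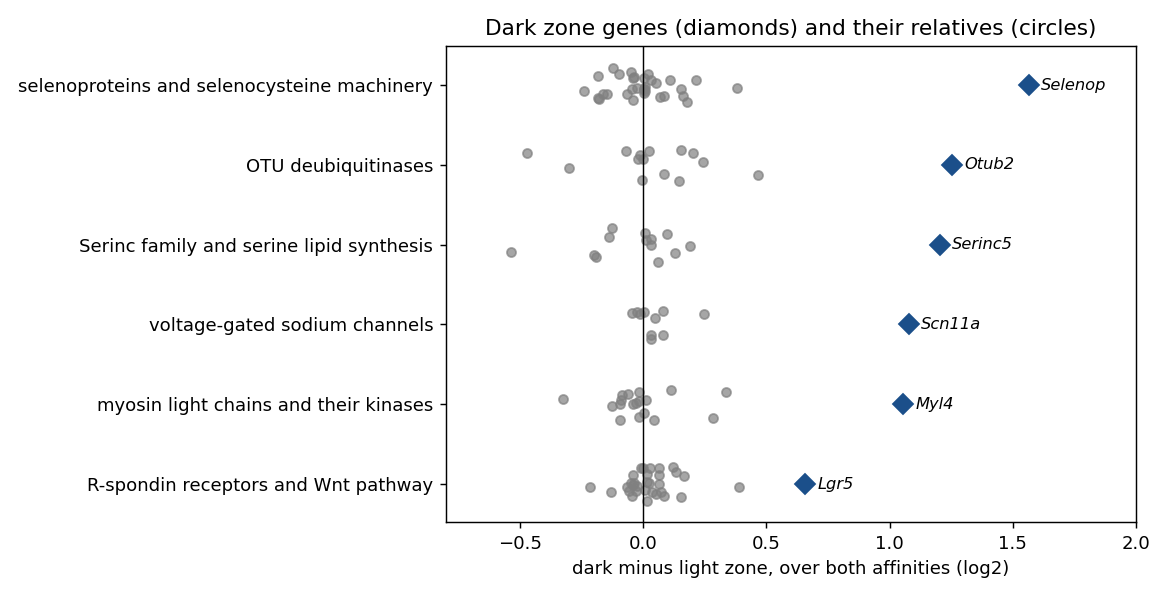
Dark minus light zone difference (log2, over both affinities) of 6 of the 7 genes (blue diamonds) and of the measured genes of their families (grey circles, spread vertically to separate them). The relatives lie between -0.54 and 0.46 around 0. Each diamond, a gene chosen for this difference, lies to the right of all of its family's circles, which were not.

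A list of 17 genes known from dark zone cells, of which 15 were measured, served as a check of the label. Cxcr4 is on that list and was also used for the gates, so its direction is no independent check. Between zones 14 of 15 were above 0, with a median of 0.64, against 0.01 for the whole array. At an adjusted p under 0.05 limma called 0 of these 15. With the description code as a block and the forms of code B merged it called 6 of them, all higher in the dark zone (Cxcr4, Polh, Cd93, Ccnb2, Kif20a and Gcsam), and with codes as written 2 (Polh and Kif20a). Without the block 10 were higher at an unadjusted p under 0.05, against 1.91% of all genes. Polh, the translesion polymerase eta, was at 0.83 ± 0.17 (limma, adjusted p = 0.101, and 0.00103 with the merged code block), and Ccnb2, a mitotic cyclin gene, at 1.02 ± 0.29 (limma, adjusted p = 0.355, and 0.0422 with that block). Without the block Selenop, Otub2, Serinc5, Scn11a and Myl4 had larger differences than both, and Lgr5 and Ccdc190 smaller ones. The genes of the set were chosen for this difference and the list was not, so that order follows partly from the choice. Scn11a (1.08 ± 0.19) and Myl4 (1.06 ± 0.15) lay within 1 SE of Ccnb2. With the merged code block Ccnb2 was at 1.15, above Scn11a and Myl4, both at 1.12, while Selenop, Otub2 and Serinc5 stayed above it.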

How the data were processed

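Each of 15 sorted samples had its RNA amplified, labelled with biotin and run on 1 whole-transcript array. The authors deposited log2 values of 28853 probe sets made with RMA (background correction, quantile normalization and a summary over probes). RMA and the build mm8 are named in the submitters' processing notes. No software version is given in the sources used here. Groups and replicate numbers came from the titles. Probe sets with exactly 1 gene in the platform annotation (21789) were used, and the brightest per gene was kept, which left 19938 genes. Of the 21789, 21698 matched RefSeq by Entrez ID. Limma 3.58.1 (lmFit, eBayes; R 4.3.3) was fitted once to the 15 arrays with a mean for each of the 4 groups, leaving 11 residual degrees of freedom. Benjamini-Hochberg adjustment ran over all genes. SEs and 95% intervals are those of that fit, which has no block for the description code or the title number. Arrays sharing either deviated together, so they may not be independent. The steps were tested on simulated data. Figures used matplotlib 3.10.9.

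The 7 genes, the lists and the tests were chosen with earlier results of these data known. Named genes were the 7, the sort markers, per related list the genes that passed or else the 2 with the largest difference, and the 2 genes most like each of the 7. Genes named as neighbours of the set were added after their values were seen. The labels do not say whether samples came from separate mice, so p-values reflect only the spread among the deposited samples, which may be technical. The number of arrays limits the precision. Alternatives changed blocks, normalization, filter, probe sets, variance model, weights and arrays.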

Additional observations from a re-analysis of the deposited data

Results flagged for a closer look

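Among 21 groups of 4 arrays tested for an outlying array (7 genes in Dzhi, Dzlo and Lzlo), 2 had one, and chance alone gives about 5% of groups. Selenop in Dzlo replicate 3 was 6.60, and the other Dzlo arrays lay between 7.32 and 7.43. Dzlo replicate 3 also had the highest summed level of macrophage (1240) and neutrophil (5950) markers among dark zone arrays, and the part of those cells in the Selenop value was not tested. Myl4 in Dzhi replicate 4 was 10.37, and the other Dzhi arrays lay between 11.11 and 11.25. Without Dzhi replicate 4 the high minus low difference of Myl4 in the dark zone was 0.15, against -0.05 with it.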

How the results depend on the processing

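The dark minus light differences of all 7 genes kept their direction and moved by less than their spread between replicates in every alternative run. The kept direction is no test, since the genes were chosen for this difference and their zones did not overlap. Their median was 1.00 to 1.20 when 1 array was left out. The 0 calls among the 7 genes for affinity in either zone and for the interaction stayed at 0 in every alternative run. The smallest adjusted p of any of the 7 was 0.772, for Ccdc190 in the light zone without Lzhi replicate 1. Of the 7 genes 5 were above the median level, so Scn11a and Lgr5 have no value under that filter.

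The count of related genes called between zones was 0, and 1 with the title number as replicate block (Cd93). It was 6 with the description code as block and the forms of code B merged (Cxcr4, Polh, Cd93, Ccnb2, Kif20a and Gcsam), and 2 with codes as written. It was 1 with quantile normalization, with array weights or without the 2 low-affinity arrays of code D, and 0 to 2 when 1 array was left out (2 without Dzhi replicate 4, 1 without Lzlo replicate 3). All of these belong to the dark zone list and 0 to the 6 families. The title number and code blocks changed no call among the 7 genes for affinity or the interaction, and none among the 118 relatives. Same-numbered arrays of different groups deviated together (mean r 0.227, above 0.1 in 15 of 21 pairs, against -0.0615 for others). Same-code arrays had 0.288, in 16 of 21, against -0.082. The closest array of another group had the same number for 10 of 15 arrays and the same code for 12.

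The 14 genes called on the dark zone side of the whole array were recounted under the same settings, chosen after seeing the data. They numbered 27 with the title number block, 40 with the merged code block, 26 with quantile normalization and 32 with array weights, with 13 of the 14 among them under quantile normalization and all 14 under the other 3. They numbered 13 with codes as written, with 4 of the 14, and 8 with arrays centred on their medians. Leaving out 1 array gave 5 to 14. Adhfe1 passed in the settings with 26 or more genes, Ptgr1 in all of them except the title number block. Nt5e, Tent5c, Eif2ak3, Ada and Acss1 did not pass with codes as written.

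Differences near 0 changed sign. In the dark zone, the affinity difference of Serinc5 was -0.18 with array weights and -0.14 without the low-affinity arrays of code D, and ran from -0.14 to 0.20 when 1 array was left out. That range was -0.18 to 0.19 for Otub2 and -0.14 to 0.15 for Myl4. In the light zone, Scn11a was at -0.10 with the title number block, -0.059 and -0.075 with the merged and written code blocks, -0.10 with array weights and -0.039 without code D's low-affinity arrays. Serinc5 was at -0.013 and -0.035 with the merged and written code blocks, and Selenop at 0.041 with array weights and 0.0068 without code D's low-affinity arrays. Leaving out 1 array gave -0.18 to 0.18 for Scn11a, -0.11 to 0.16 for Serinc5, -0.31 to 0.058 for Selenop and -0.14 to 0.034 for Lgr5. The interaction of Selenop was 0.0196 with the merged and 0.0178 with the written code block and -0.28 to 0.14 when 1 array was left out. That of Serinc5 was -0.0158 with arrays centred on their medians, -0.28 with array weights, -0.19 without code D's low-affinity arrays and -0.17 to 0.17 when 1 array was left out. The cause was not tested.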
